A study of Mus musculus with 68 samples.

Results

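The 8 genes Man2b2, Sec24d, Vstm5, Smim1, Plcg2, Lsp1, Ryr1 and Zfp992 are expressed in mouse prefrontal cortex and were picked because earlier results from these same libraries had placed them higher in mice heterozygous for Adnp (HT). They were found by symbol among the 18088 genes of the table, and all 8 passed the filter on low values that left 17922 genes for testing. The genotype differences below are therefore descriptions of the genes that were picked. They are given with no p-value, and nothing is read from how many of the 8 were called. Comparisons that the choice did not use (drug, sex, library set and neighbouring genes) are given with their tests. Neighbours of Zfp992 that share sequence with it are not free of the choice.

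Prefrontal cortex was taken from 68 mice of strain C57BL/6J on postnatal day 25, and their polyadenylated RNA was sequenced from stranded libraries. The mice were heterozygous for Adnp (HT) or wild type (WT), and had received fluoxetine, lithium or vehicle through their mother's milk from day 3 to day 24. The groups were HT fluoxetine (5 females, 5 males), WT fluoxetine (5 females, 5 males), HT lithium (4 females, 5 males), WT lithium (5 females, 3 males), HT vehicle (8 females, 8 males) and WT vehicle (8 females, 7 males). The sources used here do not describe the Adnp allele, the doses or the litters. They give 1 library per animal label without stating that these were separate litters, so p-values measure only the spread between these libraries.

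Adnp encodes a chromatin-binding protein that forms a repressive complex with the remodeller Chd4 and heterochromatin proteins, and mutations of the human gene cause a syndromic form of autism. The 8 genes act in separate places. Man2b2 trims mannose from glycoproteins in lysosomes, Sec24d selects cargo for the vesicles that leave the endoplasmic reticulum, Vstm5 and Smim1 are small membrane proteins, Plcg2 and Ryr1 act in calcium signalling, Lsp1 binds actin filaments and Zfp992 belongs to the zinc finger genes of distal chromosome 4.

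Promoter sequences, 250 bases before to 50 after the gene start, were at hand for 6 of the 8 genes, Man2b2, Sec24d, Vstm5, Smim1, Plcg2 and Ryr1 (RefSeq, GRCm38.p6). The 3 printed here span the range of CpG content among genes whose difference between HT and WT was of like size. Sec24d (chr3:123267246-123267545, plus strand), Man2b2 (chr5:36830600-36830899, minus strand) and Vstm5 (chr9:15238795-15239094, plus strand) are written 5′ to 3′ with each CpG in capitals.
Sec24d: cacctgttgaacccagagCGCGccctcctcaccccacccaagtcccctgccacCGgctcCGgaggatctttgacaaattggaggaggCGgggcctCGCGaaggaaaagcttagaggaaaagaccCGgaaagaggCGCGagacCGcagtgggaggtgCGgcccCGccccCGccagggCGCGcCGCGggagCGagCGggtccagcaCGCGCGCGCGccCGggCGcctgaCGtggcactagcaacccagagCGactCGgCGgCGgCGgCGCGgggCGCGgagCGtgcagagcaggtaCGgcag
Man2b2: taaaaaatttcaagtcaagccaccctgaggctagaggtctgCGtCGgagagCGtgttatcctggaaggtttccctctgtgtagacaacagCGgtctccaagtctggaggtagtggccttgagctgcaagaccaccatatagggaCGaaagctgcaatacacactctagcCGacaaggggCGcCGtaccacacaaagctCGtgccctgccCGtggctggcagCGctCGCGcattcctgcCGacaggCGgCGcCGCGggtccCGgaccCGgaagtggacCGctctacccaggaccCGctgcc
Vstm5: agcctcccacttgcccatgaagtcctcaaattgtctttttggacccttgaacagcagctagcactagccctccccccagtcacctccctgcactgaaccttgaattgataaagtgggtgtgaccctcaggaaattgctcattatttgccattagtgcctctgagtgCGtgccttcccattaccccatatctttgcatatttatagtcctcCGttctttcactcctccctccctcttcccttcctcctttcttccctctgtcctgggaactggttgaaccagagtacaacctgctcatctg
The window of Sec24d held 39 CpG and that of Man2b2 22, against 2 in that of Vstm5. Across 32851 RefSeq promoters of the same length the median was 7 and the quartiles were 3 and 20. Plcg2 had 21, Smim1 10 and Ryr1 9. The letters TATAAA, on either strand, stood in the window of Vstm5 alone of the 6, and in 13.6% of all promoters. GGGCGG was found in 4 of the 6 (Sec24d, Plcg2, Smim1 and Ryr1) and in 35.7% of all, CCAAT in 2 (Sec24d and Ryr1) and in 37.4%, and CCCTC in 5 (all but Plcg2) and in 66.0%. Both strands were searched, and CCCTC can share letters with the reverse of GGGCGG. A match describes these letters only.

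The libraries held between 22.4 and 37.5 M reads (median 30.7 M). Levels are given as normalized counts, the reads of a gene divided by 1 factor per library, and differences as log2 of the normalized count + 1, fitted as the mean of females and males. Adnp itself (chromosome 2, 168180986 to 168207112, minus strand) was higher, not lower, in libraries labelled HT. Its median was 1911 normalized counts in HT and 1488.5 in WT under fluoxetine, 2339.8 in HT and 1998 in WT under lithium, and 2334 in HT and 1978 in WT under vehicle. By limma it was higher in HT under fluoxetine (1.25-fold, log2 difference 0.32, adjusted p = 0.039) and vehicle (1.25-fold, 0.32, adjusted p = 0.0021), and stood above WT without passing under lithium (0.25, adjusted p = 0.19). Reads summed per gene do not show the allele they came from, so they do not check the genotype labels. Levels of 361 pseudogenes divided the libraries into 3 sets that the labels do not name. Set 1 was made up of the 20 fluoxetine libraries with 8 from HT vehicle mice, set 2 of the 17 lithium libraries with 6 from HT and 5 from WT vehicle mice, and set 3 of 2 HT and 10 WT vehicle libraries. Within set 2 under vehicle the difference of Adnp was 0.19 (adjusted p = 0.88). Because set 3 has most of the WT vehicle mice and no drug-treated one, values within a set are given beside those over all libraries. In whole tissue, fewer cells of a type and less RNA per cell cannot be told apart.

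Genes of the secretory pathway and the lysosome come first. Man2b2 (ENSMUSG00000029119, chromosome 5, 36806921 to 36830653, GRCm38, minus strand) encodes a lysosomal mannosidase that cuts the core of N-linked glycans. Under fluoxetine its lowest, median and highest normalized counts were 679, 824 and 937 in the 10 HT libraries, against 546, 588 and 644 in the 10 WT libraries. With lithium the 9 HT libraries gave 812, 895 and 951 normalized counts, against 605, 668 and 717 in the 8 WT libraries. The 16 HT vehicle libraries had 778, 886 and 948, against 482, 588 and 671 normalized counts in the 15 WT vehicle libraries. The HT and WT libraries did not overlap in any of the 3 treatments, and over all libraries 1 HT library (fluoxetine) lay under the highest WT library (lithium). The difference was 1.41-fold under fluoxetine (log2 difference 0.49, SE 0.050), 1.34-fold under lithium (0.42, SE 0.055) and 1.51-fold under vehicle (0.59, SE 0.040). Its spread between libraries of 1 group (SD 0.091 on the log2 scale) was smaller than that of 82.3% of tested genes.

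Sec24d (ENSMUSG00000039234, chromosome 3, 123267455 to 123365641, plus strand) encodes a cargo adaptor of the COPII coat, which in zebrafish and humans is needed for the export of collagen. In the 10 HT fluoxetine libraries it had a lowest, median and highest normalized count of 497, 543 and 596, against 357, 409 and 463 in the 10 WT fluoxetine libraries. Lithium-treated HT mice (9 libraries) had 532, 590.3 and 654 normalized counts, against 361, 415 and 465 in lithium-treated WT mice (8 libraries). For vehicle, the same 3 values were 514, 560.1 and 626 normalized counts in HT (16 libraries) and 317, 396 and 502 in WT (15 libraries). Here too the genotypes stood apart within each treatment, with the narrowest gap under vehicle, where the lowest HT library had 514 and the highest WT library 502 normalized counts. HT libraries were higher 1.34-fold under fluoxetine (log2 difference 0.42, SE 0.056), 1.42-fold under lithium (0.51, SE 0.062) and 1.41-fold under vehicle (0.50, SE 0.045).

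Of the membrane proteins, Vstm5 (ENSMUSG00000031937, chromosome 9, 15239045 to 15259416, plus strand) carries an immunoglobulin V-set domain and is known to promote membrane protrusions of mouse cortical neurons. Under fluoxetine its lowest, median and highest normalized counts were 251, 264 and 283 in the 10 HT libraries, against 167, 196 and 205 in the 10 WT libraries. With lithium the 9 HT libraries gave 266, 289 and 316 normalized counts, against 203, 212 and 229 in the 8 WT libraries. The 16 HT vehicle libraries had 226, 257 and 319.8, against 155, 179.5 and 240.0 normalized counts in the 15 WT vehicle libraries. Ranges were apart under both drugs and overlapped under vehicle, where 2 of 16 HT libraries lay under the highest WT library. The level was higher in HT 1.37-fold under fluoxetine (log2 difference 0.45, SE 0.055), 1.33-fold under lithium (0.41, SE 0.061) and 1.40-fold under vehicle (0.49, SE 0.045).

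Smim1 (ENSMUSG00000078350, chromosome 4, 154020470 to 154026230, minus strand) encodes a small transmembrane protein that carries the Vel antigen on human red blood cells. In the 10 HT fluoxetine libraries it had a lowest, median and highest normalized count of 259, 297 and 326, against 214, 226 and 261 in the 10 WT fluoxetine libraries. Lithium-treated HT mice (9 libraries) had 279.9, 318 and 364 normalized counts, against 222, 239.8 and 276 in lithium-treated WT mice (8 libraries). For vehicle, the same 3 values were 273, 310.0 and 386 normalized counts in HT (16 libraries) and 180.3, 219 and 278 in WT (15 libraries). Only the lithium ranges stood apart, with 279.9 the lowest HT and 276 the highest WT value, and 1 HT library lay within the WT range under each of the other 2 treatments. The genotype difference was 1.3-fold under fluoxetine (log2 difference 0.37, SE 0.062), 1.32-fold under lithium (0.40, SE 0.069) and 1.45-fold under vehicle (0.53, SE 0.050). Lrrc47, on the opposite strand, overlaps Smim1 and holds 16.8% of its 31-base words, and whether the counting used strand is not given, so part of this level could be reads of Lrrc47. Lrrc47 did not pass in any treatment, with a log2 difference of 0.11 under vehicle (adjusted p = 0.11).

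Plcg2 (ENSMUSG00000034330, chromosome 8, 117498291 to 117635142, plus strand) encodes phospholipase C gamma 2, which splits a membrane phosphoinositide into inositol trisphosphate and diacylglycerol and which in brain is mainly a microglial enzyme. Under fluoxetine its lowest, median and highest normalized counts were 149, 163 and 183 in the 10 HT libraries, against 114, 121 and 149 in the 10 WT libraries. With lithium the 9 HT libraries gave 169.9, 193 and 249.9 normalized counts, against 131, 139.5 and 159 in the 8 WT libraries. The 16 HT vehicle libraries had 159, 183 and 256, against 109, 128 and 144 normalized counts in the 15 WT vehicle libraries. Lithium and vehicle ranges did not overlap, and under fluoxetine the lowest HT library had 148.8 and the highest WT library 149.1 normalized counts. Fold differences were 1.33-fold under fluoxetine (log2 difference 0.41, SE 0.065), 1.38-fold under lithium (0.46, SE 0.072) and 1.48-fold under vehicle (0.56, SE 0.052).

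Ryr1 (ENSMUSG00000030592, chromosome 7, 29003344 to 29125179, minus strand) encodes the calcium release channel of skeletal muscle, which neurons also use. In the 10 HT fluoxetine libraries it had a lowest, median and highest normalized count of 1096, 1209.5 and 1445, against 801, 926 and 1143 in the 10 WT fluoxetine libraries. Lithium-treated HT mice (9 libraries) had 1047, 1135 and 1403 normalized counts, against 584, 806 and 877 in lithium-treated WT mice (8 libraries). For vehicle, the same 3 values were 1091, 1286 and 1753 normalized counts in HT (16 libraries) and 793, 911 and 1059 in WT (15 libraries). Its ranges were apart under lithium and vehicle, and under fluoxetine 2 of 10 HT libraries lay under the highest WT library. The fold was largest under lithium, where the WT libraries were low: 1.32-fold under fluoxetine (log2 difference 0.40, SE 0.065), 1.59-fold under lithium (0.67, SE 0.072) and 1.42-fold under vehicle (0.51, SE 0.052).

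Lsp1 (ENSMUSG00000018819, chromosome 7, 142460809 to 142494867, plus strand) encodes an actin-binding protein best known from leukocytes. Under fluoxetine its lowest, median and highest normalized counts were 192, 248 and 292 in the 10 HT libraries, against 91.0, 131 and 161 in the 10 WT libraries. With lithium the 9 HT libraries gave 226, 275 and 321 normalized counts, against 152, 187 and 227 in the 8 WT libraries. The 16 HT vehicle libraries had 164, 241 and 286, against 101, 141 and 205 normalized counts in the 15 WT vehicle libraries. The ranges stood apart under fluoxetine and overlapped under lithium, by 1 library of each genotype, and under vehicle, where 3 of 16 HT libraries lay under the highest WT library. HT exceeded WT 1.97-fold under fluoxetine (log2 difference 0.98, SE 0.12), 1.47-fold under lithium (0.55, SE 0.14) and 1.67-fold under vehicle (0.74, SE 0.099). Libraries of 1 group varied more for Lsp1 than for the 6 genes above (SD 0.23 on the log2 scale).

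Zfp992 (ENSMUSG00000070605, chromosome 4, 146449023 to 146470292, plus strand) encodes a zinc finger protein and had the lowest level per kb of exon of the 8. In the 10 HT fluoxetine libraries it had a lowest, median and highest normalized count of 66.7, 89.7 and 125, against 40.7, 54.6 and 77.2 in the 10 WT fluoxetine libraries. Lithium-treated HT mice (9 libraries) had 72.7, 84.5 and 105 normalized counts, against 24.1, 38.1 and 52.8 in lithium-treated WT mice (8 libraries). For vehicle, the same 3 values were 61.5, 81.9 and 123 normalized counts in HT (16 libraries) and 27.3, 47.1 and 72.1 in WT (15 libraries). Ranges were apart under lithium only, and 3 HT libraries lay under the highest WT library under fluoxetine and under vehicle. The difference was 1.69-fold under fluoxetine (log2 difference 0.75, SE 0.13), 2.61-fold under lithium (1.38, SE 0.14) and 1.86-fold under vehicle (0.90, SE 0.10), the largest of the 8 genes under lithium and vehicle, and its within-group SD (0.26) was the largest too. Of the 31-base words in its transcripts 49.9% also occur in other genes, 41.7% in Zfp991, 40.5% in the pseudogene Znf41-ps and 18.2% in Zfp993, so how reads were shared out among these genes bears on its level.

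**Figure D1:**
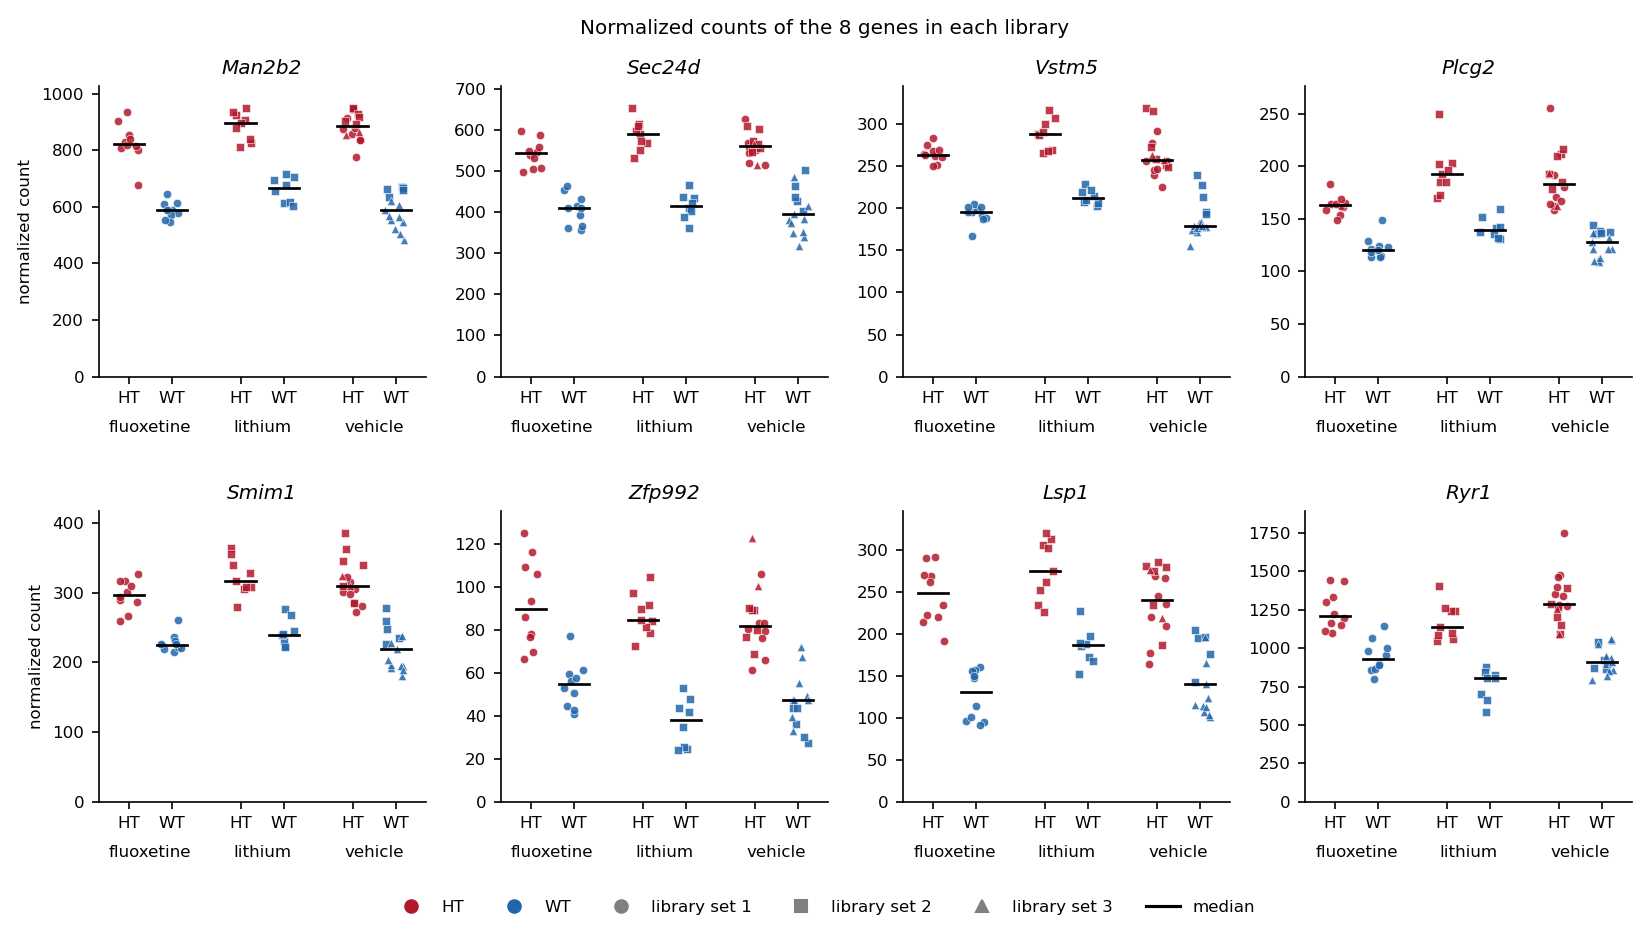
Normalized counts of the 8 genes in each of the 68 libraries (1 point a library, y axis from 0), by treatment, with HT left of WT, a bar at the median of each group of libraries, and the point shape giving the library set. Man2b2 and Sec24d show a gap between HT and WT in all 3 treatments, while Lsp1 and Zfp992 spread most; within WT vehicle the set 3 triangles lie mostly under the set 2 squares for Man2b2 and Vstm5 and above them for Zfp992.

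Divided by the length of their exons, the genes ranked from Man2b2, with a median of 248 normalized counts per kb in HT and 172 in WT, through Vstm5 (133 and 98.3), Sec24d (88.2 and 64.7), Ryr1 (57.6 and 40.2), Smim1 (53.7 and 39.3), Lsp1 (50.6 and 29.4) and Plcg2 (41.6 and 30.0), to Zfp992 (18.5 and 10.4). On this scale Ryr1 is mid-rank, although its long transcript gives it the most reads of the 8. The lengths join the exons of all annotated transcripts of a gene. For Smim1 the joined exons, 5761 bases, cover the whole gene, so its level per kb and its rank may be too low.

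All 8 genes were called higher in HT in each treatment by limma over all genes, at an adjusted p under 0.05. That share of all tested genes was 1.33% under fluoxetine, 1.48% under lithium and 7.74% under vehicle, and because these contrasts chose the genes nothing is read from the count. HT stood above WT without overlap for 4 of the 8 under fluoxetine (Man2b2, Sec24d, Vstm5 and Lsp1; 0.279% of all genes), 7 under lithium (all but Lsp1; 0.446%) and 4 under vehicle (Man2b2, Sec24d, Plcg2 and Ryr1; 0.128%). With the treatments joined, 0 of the 8 stood apart (0.0502% of all genes).

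Within library set 2 the vehicle differences were smaller than over all libraries for 7 genes: Man2b2 0.48, Sec24d 0.37, Vstm5 0.37, Smim1 0.42, Plcg2 0.52, Ryr1 0.43 and Lsp1 0.46 on the log2 scale. For Zfp992 it was larger (1.17). Lsp1, at 0.74 over all libraries, was not called higher by the fit within set 2. The other 7 were called there (0.463% of all genes), a count from which nothing is read. The 6 HT and 5 WT vehicle libraries of set 2 overlapped for Lsp1 and did not for the other 7 (0.965% of all genes), and since these libraries are among those that chose the genes nothing is read from that count either. Man2b2, for example, had 893 to 948 normalized counts in these HT libraries and 635 to 671 in the WT ones, and Zfp992 had 68.9 to 90.2 in HT and 27.3 to 43.9 in WT. In vehicle males of set 3, where 2 HT libraries met 5 WT libraries, the differences ran from 0.35 (Ryr1, SE 0.12) to 1.22 (Zfp992, SE 0.22). Ryr1 was not called higher in that comparison.

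Taken by sex, the differences of the 8 genes between HT and WT ran from 0.31 to 1.07 in females under fluoxetine, from 0.40 to 1.07 under lithium and from 0.43 to 0.82 under vehicle. In males they ran from 0.29 to 0.93 under fluoxetine, from 0.33 to 1.70 under lithium and from 0.46 to 0.98 under vehicle. Ryr1 in fluoxetine males was the lowest of these 48 values and Zfp992 in lithium males the highest.

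**Figure D2:**
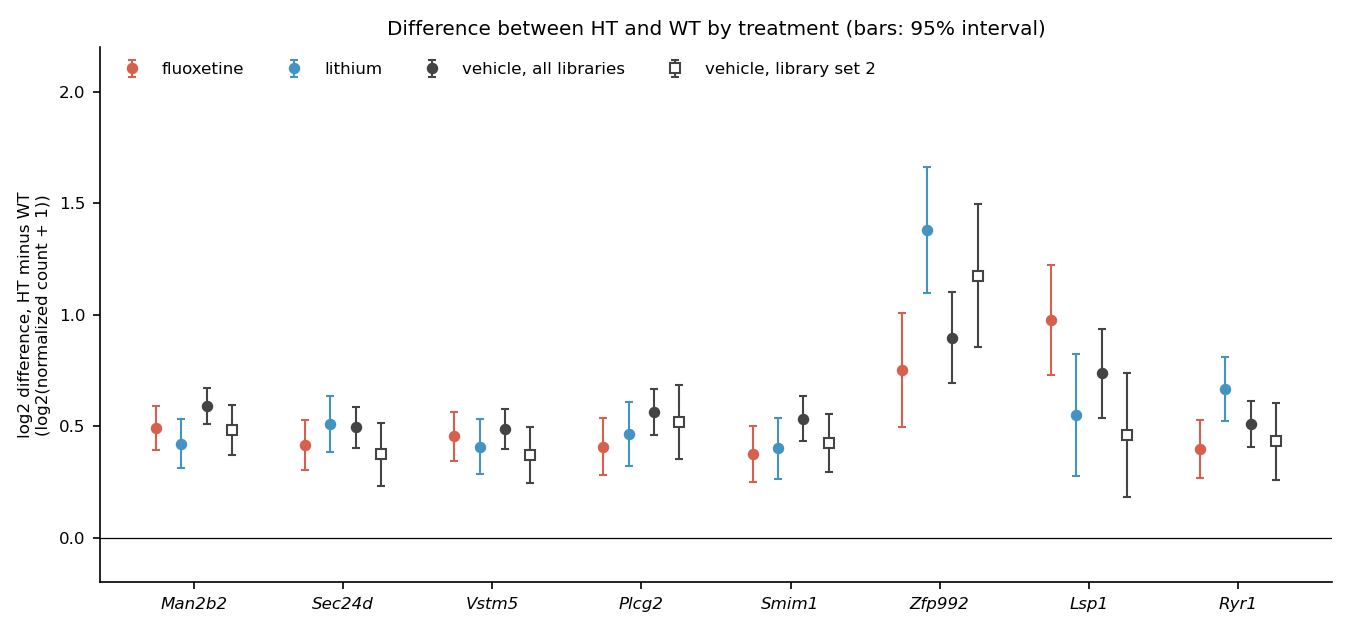
Log2 difference between HT and WT for each of the 8 genes (HT minus WT on the log2 scale of normalized count + 1, mean of the sexes, bars for the 95% interval) under fluoxetine, lithium and vehicle, and under vehicle within library set 2 (open squares). The estimates run from 0.37 to 1.38, with most between 0.37 and 0.59, and Zfp992 and Lsp1 have the widest bars.

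The genotype difference under each drug was set against that under vehicle. Under lithium it was smaller than under vehicle by 0.17 for Man2b2 (95% interval of the difference of differences, -0.31 to -0.03) and larger by 0.48 for Zfp992 (0.13 to 0.83). For the other 6 genes this difference of differences ran from -0.18 for Lsp1 (-0.52 to 0.15) to 0.16 for Ryr1 (-0.021 to 0.33). Set 3, with 10 of the 15 WT vehicle libraries, has no lithium library, and within set 2 both values were smaller: Man2b2 differed by -0.062 (-0.21 to 0.085) and Zfp992 by 0.21 (-0.20 to 0.62). There Ryr1 had the largest, at 0.23 (0.012 to 0.46, against 0.16 over all libraries), the other 5 ran from -0.055 for Plcg2 to 0.14 for Sec24d, and Lsp1 (0.091) and Vstm5 (0.038) were opposite in sign to their values over all libraries. Under fluoxetine against vehicle, no library set holds WT vehicle and fluoxetine libraries together. There the estimates ran from -0.16 for Smim1 (-0.32 to 0.00072) to 0.24 for Lsp1 (-0.075 to 0.56). These differences share the arms that chose the genes and are given without a test. Their intervals are for 1 gene at a time and not adjusted, so nothing is read from whether an interval includes 0.

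Fluoxetine, a serotonin reuptake inhibitor, was compared with vehicle as the mean over both genotypes and sexes, in which the genotype difference cancels. None of the 8 genes passed by limma, where 7.41% of all genes did. Plcg2 came nearest, at -0.11 (SE 0.042, adjusted p = 0.083; unadjusted p = 0.0086), followed by Zfp992 at 0.19 (SE 0.082, adjusted p = 0.14; unadjusted p = 0.022). Those 2 genes alone had an unadjusted p under 0.05. For the other 6 the estimates lay between -0.067 (Lsp1, 95% interval -0.23 to 0.091) and 0.024 (Vstm5, -0.047 to 0.095). Among the HT libraries of set 1, where every vehicle library is HT, 0 of the 8 passed either (0.167% of all genes), and Ryr1 had the smallest p, at -0.18 (adjusted p = 0.28), with Ryr1 and Plcg2 at an unadjusted p under 0.05. Lsp1 stood at 0.20 there (95% interval -0.016 to 0.42), opposite in sign to its value over all libraries of both genotypes. Over all HT libraries it was 0.053. edgeR and DESeq2 on whole reads also called 0 of the 8 over all libraries.

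Lithium, a salt used to treat bipolar disorder and a blocker of the recycling of inositol, gave another picture over all libraries. By limma 5 of the 8 genes passed, where 35.9% of all genes did. Vstm5 (0.16, SE 0.038, adjusted p = 0.00089), Lsp1 (0.31, SE 0.084, adjusted p = 0.0037), Plcg2 (0.12, SE 0.044, adjusted p = 0.025) and Smim1 (0.10, SE 0.043, adjusted p = 0.048) were higher under lithium than under vehicle. Ryr1 was lower (-0.23, SE 0.044, adjusted p = 7.2e-05). Man2b2 (0.082, adjusted p = 0.051), Zfp992 (-0.18, adjusted p = 0.10) and Sec24d (0.061, adjusted p = 0.21) did not pass. The call of Plcg2 was lost without HT lithium female 4 (adjusted p = 0.065) or WT lithium male 3 (0.051), and that of Smim1 without any 1 of 27 libraries (adjusted p of 0.0501 to 0.099), while Man2b2 passed without any 1 of 21 libraries and Zfp992 without WT vehicle female 6 (adjusted p = 0.0496). In WT mice alone, where 36.1% of all genes passed, Lsp1 (0.40), Vstm5 (0.20), Plcg2 (0.17), Smim1 (0.17) and Man2b2 (0.17) were higher and Zfp992 (-0.42) and Ryr1 (-0.31) lower under lithium. In HT mice alone 0 of the 8 passed (1.52% of all genes), with Ryr1 at -0.15 (adjusted p = 0.17) and Vstm5 at 0.12 (adjusted p = 0.21), the 2 genes with an unadjusted p under 0.05. The WT vehicle libraries enter the first of these comparisons and also the genotype differences, and most of them lie in set 3, which holds no lithium library.

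Within set 2, which holds lithium and vehicle libraries of both genotypes, 0 of the 8 passed by limma, against 1.8% of all genes. The call of Ryr1 was lost too, at -0.18 (SE 0.055, adjusted p = 0.072; unadjusted p = 0.0018), which was the largest shift of the 8 within this set, and it was the 1 gene of the 8 with an unadjusted p under 0.05. Lsp1 stood at 0.061 (95% interval -0.12 to 0.24), Vstm5 at 0.033 (-0.048 to 0.11), Plcg2 at 0.0057 (-0.10 to 0.11), Sec24d at -0.036, Man2b2 at -0.032 and Smim1 at -0.051. For the last 3 genes the sign was the reverse of that over all libraries. Whether the set or the drug moved Vstm5, Lsp1, Plcg2 and Smim1 in the pooled comparison was not tested beyond these within-set values.

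The library sets themselves were compared among mice with the same labels. In WT vehicle mice the split followed replicate number, with numbers 1 to 5 in set 3 and 6 to 8 in set 2. Set 3 libraries differed from set 2 libraries for 7 of the 8 genes, where 42.4% of all genes passed by limma. They were lower for Lsp1 (-0.56, SE 0.13, adjusted p = 0.00031), Smim1 (-0.30, adjusted p = 4.4e-05), Vstm5 (-0.28, adjusted p = 6.8e-05), Man2b2 (-0.25, adjusted p = 8.6e-05), Sec24d (-0.23, adjusted p = 0.0024) and Plcg2 (-0.21, adjusted p = 0.023). Zfp992 was higher in set 3 (0.46, SE 0.14, adjusted p = 0.0090), and Ryr1 did not pass (0.016, 95% interval -0.14 to 0.17, adjusted p = 0.89). The sets were formed from pseudogene levels in these same libraries, so the shares of genes that passed are not those of a design fixed by the labels. In HT vehicle mice, set 1 against set 2 gave 0 of 8 calls (1.62% of all genes), with Smim1 nearest at -0.19 (adjusted p = 0.069; unadjusted p = 0.0017). In all, 5 of the 8 genes had an unadjusted p under 0.05 in that comparison. No share of all genes at the unadjusted threshold was taken for any comparison, so nothing is read from such counts.

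**Figure D3:**
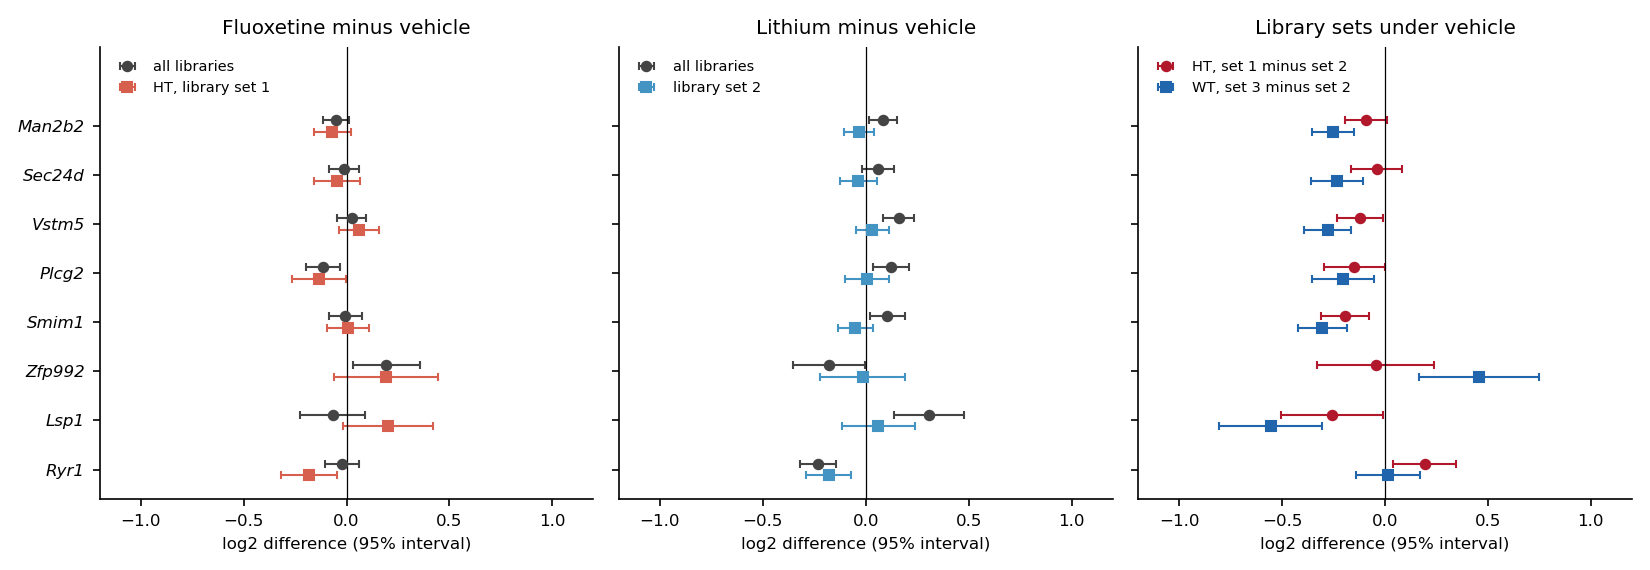
Log2 differences with 95% intervals for each of the 8 genes: fluoxetine minus vehicle (left), lithium minus vehicle (middle), each over all libraries and within 1 library set, and between library sets of vehicle mice with the same genotype (right). The within-set fluoxetine values come from HT libraries of set 1 only. In the middle panel the within-set values of Vstm5, Plcg2, Smim1 and Lsp1 lie nearer 0 than those over all libraries, and Ryr1 lies at -0.18, against -0.23 over all libraries; in the right panel 6 genes are lower in WT set 3 than in WT set 2.

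The 8 genes were then compared between the sexes. In males minus females 0 of the 8 passed by limma (0.1% of all genes; 0 of the 8 at an unadjusted p under 0.05), with estimates between -0.12 for Zfp992 (95% interval -0.26 to 0.026) and 0.047 for Vstm5 (-0.015 to 0.11). The genotype difference in males less that in females passed for 0 of the 8 and for 0 of all genes (0%). Zfp992 alone had an unadjusted p under 0.05 there, at 0.38 (95% interval 0.09 to 0.67, unadjusted p = 0.011, adjusted p = 0.47). Under lithium the 5 HT males had 72.7 to 89.9 normalized counts of Zfp992 and the 3 WT males 24.1 to 25.3, against 78.8 to 105 in the 4 HT females and 34.6 to 52.8 in the 5 WT females.

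Neighbouring genes were taken by position alone, the 3 nearest tested genes on each side of each of the 8, 48 in all. Of the 6 neighbours of Zfp992, by limma 3 were higher in HT under fluoxetine (1.33% of all genes), 4 under lithium (1.48%) and 5 under vehicle (7.74%). Znf41-ps passed in every treatment (0.78 under fluoxetine, 1.02 under lithium and 0.63 under vehicle; adjusted p = 2.1e-06 under vehicle), as did Zfp991 (0.56, 0.75 and 0.46; adjusted p = 0.00070 under vehicle). Zfp993 (0.61, 1.28 and 1.14) and the pseudogene Gm13241 (1.07, 2.0 and 1.41) passed under lithium and vehicle, and Zfp986 (1.03, 0.66 and 0.99) under fluoxetine and vehicle. Zfp986, with a mean of 9.36 normalized counts, and Gm13241, with 8.49, are low. Within set 2 under vehicle Znf41-ps (0.80, adjusted p = 0.00058) and Zfp991 (0.59, adjusted p = 0.043) passed and the other 4 did not.

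Of the other 42 neighbours, 1 was higher and 0 lower under fluoxetine (1.33% and 0.653% of all genes), 1 was higher and 0 lower under lithium (1.48% and 1.03%), and 5 were higher and 4 lower under vehicle (7.74% and 7.21%). Ifitm10, next to Lsp1 and of an interferon-induced membrane protein family, passed under fluoxetine (0.26, adjusted p = 0.040) and vehicle (0.27, adjusted p = 0.00077). Rasgrp4 beside Ryr1, an exchange factor for Ras, passed under lithium (0.39, adjusted p = 0.032). The other calls, all under vehicle, were Jakmip1 (0.18), Snhg8 (0.30), Pkd1l2 (1.18) and Eif3k (0.11) higher, and Usp53 (-0.15), 4931406C07Rik (-0.14), Taf1d (-0.19) and the imprinted RNA gene H19 (-0.60) lower. The nearest neighbours that did not pass include Med17 beside Vstm5 (0.027 under vehicle), Mettl14 beside Sec24d (-0.086) and Map4k1, the next gene to Ryr1 (-0.14).

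**Figure D4:**
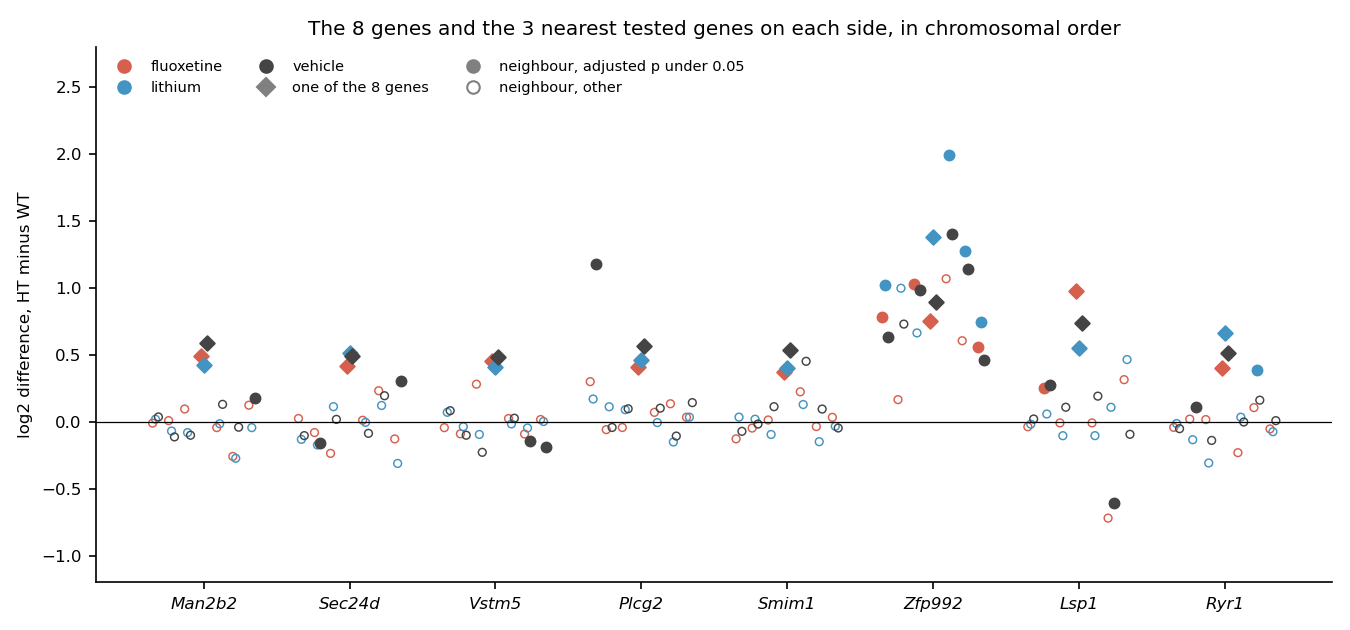
Log2 difference between HT and WT for each of the 8 genes (diamonds) and, in chromosomal order around it, the 3 nearest tested genes on each side (circles, filled at an adjusted p under 0.05), by treatment. The neighbours of Zfp992 all lie above 0 with filled circles up to 2.0, while those of the other 7 genes scatter around 0, the farthest being Pkd1l2 near Plcg2 (1.18 under vehicle) and H19 near Lsp1 (-0.72 under fluoxetine, not passed, and -0.60 under vehicle).

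A list of 8 zinc finger genes of distal chromosome 4, without Zfp992, holds 3 of the neighbours just described (Zfp986, Zfp991 and Zfp993). In each treatment 3 of the 8 were higher in HT and 0 lower, where 1.33%, 1.48% and 7.74% of all genes were higher under fluoxetine, lithium and vehicle. Their median difference was 0.38 under fluoxetine, 0.60 under lithium and 0.27 under vehicle, beside -0.0018, 0.0019 and -0.0055 for all genes. Zfp991 passed in all 3 treatments, Zfp988 (1.04) and Zfp986 under fluoxetine, Zfp982 (0.53) and Zfp993 under lithium, and Zfp986 and Zfp993 under vehicle. Zfp933 (-0.24 under fluoxetine, adjusted p = 0.056), Zfp979 and Zfp984 (-0.21 under vehicle, adjusted p = 0.095) did not pass. Within set 2 under vehicle 1 of the 8 was higher, and within set 1 under fluoxetine 3 were higher and Zfp933 was lower (adjusted p = 0.016). Zfp991 and Zfp993 share sequence with Zfp992, so their single levels are uncertain. Sequence shared among the genes of the list was not counted, so the levels of the others may be uncertain too.

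Genes that work with the other 7 were read from lists by role. Over all libraries 1.33% of all genes were higher and 0.653% lower in HT under fluoxetine, 1.48% and 1.03% under lithium, and 7.74% and 7.21% under vehicle. By the fit within a library set these shares were 1.78% and 1.07% under fluoxetine, 2.15% and 2.34% under lithium, and 0.463% and 0.0725% under vehicle. Counts over a list are set beside these shares, and nothing particular to a list is read from them. Of 27 lysosomal glycosidases and related lysosomal genes, 1 was higher and 0 lower in HT under fluoxetine, 0 and 1 under lithium, and 4 and 0 under vehicle, with a median of 0.026 under vehicle beside -0.0055 for all genes. Gaa, the acid glucosidase that breaks down glycogen, was higher under fluoxetine (0.23, adjusted p = 0.015) and vehicle (0.34, adjusted p = 8.4e-08), and Neu1, a sialidase, was lower under lithium (-0.18, adjusted p = 0.0058). Within set 2 under vehicle Gaa stood at 0.098 (adjusted p = 0.86) and 0 of the 27 passed. Man2b1, the other lysosomal mannosidase of the family, did not pass over all libraries in any treatment (-0.13 under fluoxetine, adjusted p = 0.13), and was lower by the fit within set 1 (adjusted p = 0.024). Fluoxetine and lithium libraries each lie in 1 set, so there the fit within a set gives the same difference with another estimate of the spread.

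For the COPII coat, 22 of 23 listed genes were tested. Under fluoxetine and under lithium 0 passed in either direction, and under vehicle 1 was higher and 3 were lower, with a median of 0.015. Tmed2, a cargo receptor (-0.17, adjusted p = 0.0084), Tfg (-0.091, adjusted p = 0.022) and Surf4 (0.11, adjusted p = 0.017) were among them, and 0 passed within set 2. Preb, an exchange factor that starts coat assembly, stood at -0.11 under lithium (adjusted p = 0.090; 0.037 by the fit within set 2). A short list of 7 other genes named for V-set and transmembrane domains gave 0 calls among 5 tested in any treatment.

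Among 24 phospholipase C genes and partners of the enzyme, 1 was higher in HT under fluoxetine, 1 under lithium and 3 under vehicle, beside 1.33%, 1.48% and 7.74% of all genes, and 0 were lower. Plch2, the neuronal phospholipase C eta 2, was higher in each treatment (0.19 under fluoxetine, 0.24 under lithium and 0.30 under vehicle; adjusted p = 0.0085, 0.0024 and 1.1e-08) and within set 2 under vehicle (0.27, adjusted p = 0.014). Syk, a kinase that acts upstream of Plcg2 in leukocytes, was higher under vehicle over all libraries (0.25, adjusted p = 0.0028) and within set 2 (0.39, adjusted p = 0.033), and stood at 0.24 under lithium (adjusted p = 0.096). Plcd3 was higher under vehicle (0.26, adjusted p = 0.00083) and not within set 2 (0.068). Plcg1, the other gamma enzyme, stood at -0.11 under fluoxetine (adjusted p = 0.051; 0.025 within set 1).

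Of 26 genes for calcium release and storage, 1 was higher and 1 lower in HT under fluoxetine, 0 and 1 under lithium, and 3 and 1 under vehicle, where 7.74% of all genes were higher and 7.21% lower. Casq2, a calcium-binding protein of the sarcoplasmic reticulum that works beside ryanodine receptors in heart, was lower under fluoxetine (-0.44, adjusted p = 0.019) and vehicle (-0.51, adjusted p = 4.9e-05), and within set 2 under vehicle (-0.62, adjusted p = 0.018). S100a1, a calcium-binding protein known to bind Ryr1, was lower under lithium (-0.37, adjusted p = 4.9e-05). Fkbp1b, a ryanodine receptor partner, was higher under fluoxetine (0.19, adjusted p = 0.023), and the calcium pump gene Atp2a1 was higher under vehicle over all libraries (0.67, adjusted p = 0.0071) but did not pass within set 2 (0.52, adjusted p = 0.99). The receptor genes Ryr3 (0.34, adjusted p = 0.10) and Ryr2 (0.18, adjusted p = 0.15) did not pass under lithium.

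Actin regulators of leukocytes, 15 genes, gave 0 calls over all libraries under fluoxetine and under lithium, though by the fit within set 1 Wipf1, which binds the Was protein, was lower under fluoxetine (-0.25, adjusted p = 0.0497; 0.060 over all libraries). Under vehicle 4 were higher over all libraries (7.74% of all genes), among them Fgr (0.68, adjusted p = 0.015), Coro1a (0.22, adjusted p = 0.022) and Was (0.29, adjusted p = 0.028), and 0 within set 2.

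Markers of cell types in which the genes are also known were read beside them. For Plcg2 and Lsp1, 16 microglial markers gave 0 calls between genotypes under fluoxetine and vehicle, and 1 under lithium, where Ctss was lower in HT (-0.25, adjusted p = 0.037). The sum of these markers ran from 13801 to 17676 normalized counts in HT and from 14114 to 18193 in WT under fluoxetine, from 15041 to 18950 in HT and from 15747 to 18385 in WT under lithium, and from 14211 to 19020 in HT and from 14823 to 19178 in WT under vehicle. For other leukocytes 7 of 16 markers were measured and 0 passed in any treatment, and their sum under vehicle was 291 to 478 in HT and 315 to 577 in WT. For Smim1, 6 of 10 erythroid markers were measured and 0 passed between genotypes. In lithium minus vehicle 5 of these 6 were higher over all libraries (19% of all genes) and 0 within set 2 (1.25%). Smim1 too was higher over all libraries and did not pass within set 2 (-0.051), and so it was for Vstm5, Lsp1 and Plcg2. Of 6 oligodendrocyte markers 4 were higher over all libraries and 0 within set 2, so nothing particular to erythroid markers is read.

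Ryr1 was read beside 11 skeletal muscle markers, of which 7 were measured. The 7 summed to 373 to 455 normalized counts in HT and 314 to 395 in WT under fluoxetine, 354 to 425 in HT and 315 to 372 in WT under lithium, and 319 to 482 in HT and 273 to 383 in WT under vehicle. Acta1, skeletal muscle actin, made up most of the sum and was higher in HT under fluoxetine (0.29, adjusted p = 0.012) and vehicle (0.51, adjusted p = 3.8e-10), and within set 2 under vehicle (0.39, adjusted p = 0.00092), and stood at 0.26 under lithium (adjusted p = 0.057; 0.0055 by the fit within set 2). The other 6 did not pass in any treatment, with Casq1 at a mean of 7.72, Mylpf at 12.1, Myh4 at 14.6 and Myh1 at 18.3 normalized counts over all libraries. The part of muscle RNA in the level of Ryr1 was not tested.

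Of the markers of cortex itself, 10 neuronal genes gave 0 calls between genotypes in every treatment, as did 6 oligodendrocyte genes. Of 6 astrocyte genes, Aqp4 (-0.29, adjusted p = 0.0048) and Slc1a3 (-0.15, adjusted p = 0.0093) were lower in HT under vehicle over all libraries and did not pass within set 2. Under fluoxetine Aqp4 stood at -0.30 (adjusted p = 0.053; 0.0032 by the fit within set 1) and Slc1a3 at -0.14 (adjusted p = 0.17). Pdgfra, 1 of 4 markers of oligodendrocyte precursors, was lower under lithium (-0.27, adjusted p = 0.027) and stood at -0.21 under fluoxetine (adjusted p = 0.073; 0.018 by the fit within set 1). Kl, 1 of 9 markers of choroid plexus and meninges, was lower under vehicle (-0.78, adjusted p = 0.0075; -1.07 and not passed within set 2). Endothelium (7 markers), striatum (7), olfactory bulb (6) and cerebellum (3 of 5 tested) gave 0 calls in each treatment over all libraries, although by the fit within set 1 the endothelial receptor gene Tie1 was lower under fluoxetine (-0.23, adjusted p = 0.016; 0.096 over all libraries), and within set 2 under vehicle the median difference was -0.66 for striatum and 1.69 for olfactory bulb on the log2 scale. The part of tissue makeup in the differences of the 8 genes was not tested.

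Over all 68 libraries the levels of the 8 genes went together, with Pearson's r between 0.43 and 0.90 for the 28 pairs (median 0.81), a range that holds the genotype difference by which they were picked. With the mean of each group and library set taken off, the same pairs had r between -0.39 (Lsp1 with Ryr1) and 0.54 (Lsp1 with Sec24d), with a median of 0.13. Man2b2 and Smim1 (0.42) and Plcg2 and Smim1 (0.47) followed. These are descriptions across libraries that share treatment, depth and scaling.

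Likeness to other genes was sought among tested protein-coding genes, leaving out symbols made of Gm and a number or ending in Rik. Among these, the genes whose deviations from the group and set means were most like each of the 8 differed from gene to gene. For Lsp1 they were Nxph3 (r = 0.86, Spearman's rho 0.85, over 68 libraries), which encodes a neurexin-binding secreted protein, and Cplx3 (r = 0.85, rho 0.82), a complexin that controls vesicle fusion at synapses. Cplx3 ranged from 251 to 665 normalized counts in HT and from 157 to 639.7 in WT. It did not pass between genotypes (0.31 under fluoxetine, 0.20 under lithium and 0.34 under vehicle; adjusted p = 0.59, 0.75 and 0.15), nor did Nxph3 (0.28, -0.035 and 0.24). Within set 2 under vehicle both were of the opposite sign, Cplx3 at -0.16 and Nxph3 at -0.22, and neither passed. Ints1 and Nisch were nearest to Man2b2 (0.76 and 0.74), Ank2 and Cdh13 to Sec24d (0.65 each), Eftud2 and Snx19 to Vstm5 (0.52 and 0.49), Cst3 and Prodh to Smim1 (0.66 and 0.64), Cyp2d22 and Rnase4 to Plcg2 (0.70 and 0.67), Rnf31 and Safb2 to Ryr1 (0.64 and 0.61), and Dok6 and Zfp993 to Zfp992 (0.57 and 0.51).

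**Figure D5:**
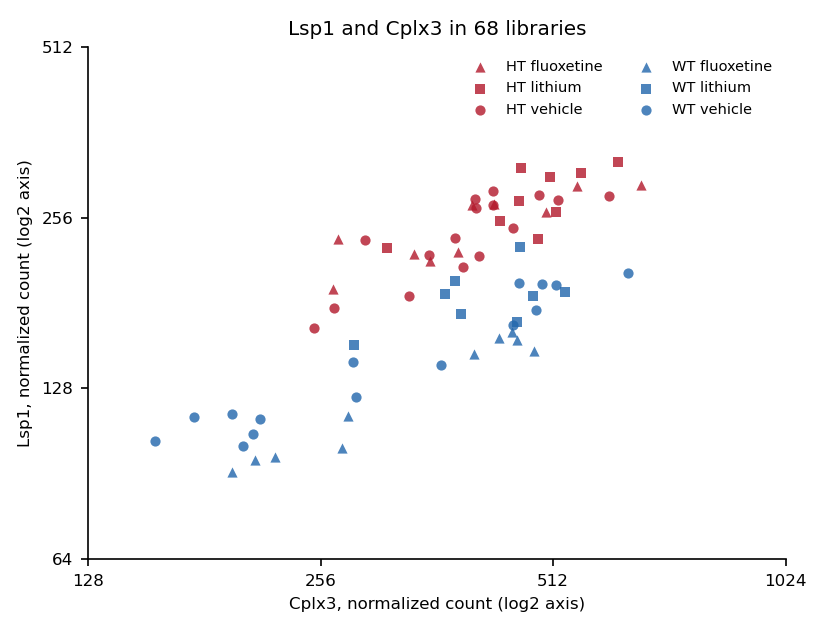
Normalized counts of Lsp1 (y) against Cplx3 (x), both on log2 axes, in the 68 libraries, coloured by genotype and shaped by treatment. The points rise together within each genotype, and at like levels of Cplx3 most HT points lie above the WT points; Cplx3 spans 251 to 665 in HT and 157 to 639.7 in WT.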

How the data were processed

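Normalized counts of 18088 genes were deposited by the authors for 68 libraries. The submitters' processing notes name Salmon 0.11.2, R 3.6.0, DESeq2 1.19.11 and build GRCm38. Which annotation release was used, whether genes were filtered and whether strand was counted is not given in the sources used here. The deposited signal of each library is a whole number of reads divided by 1 factor. In each library 100% of values came out whole within 0.01, and in 8 libraries the factor lies within 1.3 percent of 1.

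Testing was limited to genes whose mean reached 5, with limma 3.58.1 (trend and robust) in R 4.3.3 on log2(value + 1), with a mean for each genotype, treatment and sex and Benjamini-Hochberg adjustment at 0.05. Fold changes are on that scale and understate those of low genes. edgeR had been planned for raw counts. It gave way to limma because these values are normalized, while edgeR 4.0.16 and DESeq2 1.42.0 on the recovered reads served as alternatives. The limma fit alone was tested on simulated counts, for the genotype under vehicle and with no difference between library sets. Other alternatives were pseudocounts of 0.5 and 5, no filter, TMM scaling, a replicate block, the library set as a term or fits within a set, and leaving out each library. Library sets came from average linkage on 361 pseudogenes, with their number set at 3. Positions are those of GENCODE for GRCm38, in which 18077 genes matched.

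The 8 genes, the lists and the tests were chosen with earlier results of these data known. The text names the 8 genes, Adnp, up to 3 genes a list with the smallest p, neighbours that passed or are nearest, and the 2 genes most like each of the 8. Other genes it names were chosen after their values were seen. Intervals are 95% intervals. The column of HT lithium female replicate 4 carries the number 5.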

Additional observations from a re-analysis of the deposited data

Results flagged for a closer look

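In 2 of 88 groups of 4 to 8 libraries checked for the 8 genes, 1 library lay far from the rest of its group, and chance alone gives about 1 in 20. Vstm5 had 240.0 normalized counts in WT vehicle male 6, against 177 to 193 in the other libraries of that group (n = 7). Of these WT vehicle males 2 lie in set 2, male 6 among them, and 5 in set 3. Over both sexes, WT vehicle libraries had 193 to 240 normalized counts of Vstm5 in set 2 and 155 to 183 in set 3. Zfp992 had 61.5 normalized counts in HT vehicle female 4, against 76.2 to 89.3 in the others (n = 8). The cause was not tested.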

How the results depend on the processing

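The difference between HT and WT chose the 8 genes, so its values under the alternatives are a description and say nothing of its stability. They ran from 0.37 to 1.41 on the log2 scale, and from 0.36 to 1.42 without single libraries. The genotype difference under lithium less that under vehicle, refitted within set 2 as an alternative chosen after seeing the data, moved by more than the SD between libraries of 1 group for 6 of the 8 genes, among them Man2b2 (-0.062) and Zfp992 (0.21).

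Lithium against vehicle depended on the library sets: 5 of the 8 genes passed over all libraries, 0 within set 2 and 0 with the set as a term. Within set 2 the sign turned for Man2b2 (-0.032), Sec24d (-0.036) and Smim1 (-0.051), and with the set as a term for the same genes (-0.030, -0.032 and -0.038). Without single libraries 3 to 7 genes passed. Plcg2 lost its call without HT lithium female 4 (adjusted p = 0.065) or WT lithium male 3 (0.051), and Smim1 by edgeR (0.060) and DESeq2 (0.051).

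For fluoxetine against vehicle, values that had not passed turned sign. Within set 1, from HT libraries only, these were Smim1 (0.0074) and Lsp1 (0.20). Over all HT libraries Smim1 stood at -0.085 and Lsp1 at 0.053, so for Lsp1 the sign already differed without the WT libraries. With the set as a term they were Smim1 (0.053) and Lsp1 (0.0055), and without single libraries Sec24d (-0.022 to 0.0027) and Smim1 (-0.017 to 0.011). For sex, Sec24d turned with the set as a term (0.0044) and without single libraries (-0.012 to 0.010). The difference by sex turned without single libraries for Plcg2 (-0.0033 to 0.043), Smim1 (-0.036 to 0.0042) and Lsp1 (-0.070 to 0.0025).

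Equal replicate numbers were not taken to pair the libraries. The deviations of same-numbered libraries correlated at -0.24 to 0.44 over 32 pairs, and 9 of 32 correlated best with their own number. Their mean was 0.080, against -0.015 for other pairs. It was highest in vehicle males (0.22 against -0.032) and lowest in fluoxetine males (-0.062 against 0.015). These values do not settle whether some groups were paired. With the replicate block, 1 of the 8 genes passed for fluoxetine (Vstm5, 0.092) and 8 for lithium. Without the block 7.41% of all genes passed for fluoxetine and 35.9% for lithium. Fluoxetine calls over all genes rose with the block, as given below. The lithium share with the block is not given here, so nothing is read from these counts. With the block fluoxetine turned sign for Man2b2 (0.011), Sec24d (0.038), Smim1 (0.072) and Lsp1 (0.051), as did sex for Sec24d (0.0017). Numbers 6 to 8 occur only under vehicle, in set 2. The block therefore sets drug libraries against vehicle libraries 1 to 5, which lie in sets 1 and 3. The part of the sets in these calls was not tested.

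Over all genes, the genotype under vehicle gave 2680 calls, against 96 within set 2, 218 with the set as a term and 1730.0 to 4155 without single libraries. Genotype under lithium gave 450.0 calls, against 805, 756 and as few as 170.0. Fluoxetine gave 1328 calls, against 30 within set 1 (HT libraries only), 0 with the set as a term and 4105 with the block. Lithium gave 6433 calls, against 322 and 366. The genotype difference by sex gave 0 calls, against 5 with the block, 2 with the set as a term, 6 by DESeq2 and up to 3 without single libraries. The causes were not tested.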
